A study of Mus musculus with 9 samples.

Results

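The genes described are the 3 inhibitor-of-DNA-binding genes Id1, Id2 and Id3, the 3 E-protein genes Tcf3 (E2A), Tcf4 (E2-2) and Tcf12 (HEB), and the myeloid and erythroid basic helix-loop-helix genes Lyl1 and Tal1. They were chosen by name, and every probe set whose platform annotation gave 1 of these symbols alone was used. The 8 genes had 21 probe sets, of 34945 that name a single gene and 45101 in all. Id1, Id3, Lyl1 and Tal1 had 1 probe set each, Id2 and Tcf3 had 3 each, Tcf12 had 5 and Tcf4 had 6. For tests across genes the probe set with the highest mean log2 level stood for each gene, which gave 18193 genes.

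E proteins are transcription factors that bind the E-box motif CANNTG as homodimers or as heterodimers with tissue-restricted partners such as Tal1 and Lyl1. Id proteins have the dimerization domain but no DNA-binding region, so that an E protein held by an Id protein does not bind DNA. The balance of Id and E proteins is best known for its part in lymphoid commitment, where E proteins drive B and T cell genes, and Tal1 is known for its part in stem cells, erythroid cells and megakaryocytes.

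RNA was measured on 9 Affymetrix arrays from normal C57BL/6 marrow, 3 arrays for each of 3 sorted populations. Mice of both sexes were used, aged 4 to 10 weeks, and no group carried a mutation or received an agent. The Mac1- myeloblasts were c-kit+ Gr1+ cells with low or absent Mac1, the Mac1+ myeloblasts were c-kit+ Gr1+ cells with Mac1, and both were sorted free of B220, TER119, CD3, CD4, CD8 and IL7Rα. The neutrophils were c-kit- Gr1+ Mac1+ cells. The labels do not say that arrays of a group came from separate animals, and the p-values reflect the spread among these arrays alone, which could be technical.

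Median intensity per array was 39.1 to 61.8. Neutrophil array 1 stood apart: its log2 values correlated at 0.940 and 0.926 with those of the other neutrophil arrays, against 0.986 between the latter and 0.987 to 0.994 within the myeloblast groups. It lay at least 2-fold below both other neutrophil arrays at 1998 probe sets and at least 2-fold above at 2672, against at most 178 and 226 on any other array (over an intensity of 200). The 3′ to 5′ signal ratio on it was the highest of the 9 arrays for Gapdh (2.70 against 1.92 to 2.47) but among the lowest for Actb (1.55 against 1.52 to 2.49). Member values are therefore given for each array, and tests also without it where that changes a call. The model shares 1 estimate of the spread over the 3 populations, so neutrophil scatter also enters the tests between the myeloblast populations. With only the 2 myeloblast populations fitted, 6 of the 8 members were called between them, against 4509 of 18193 genes.

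The sort antigens followed the labels. Kit (c-kit) averaged 11.63 on the log2(intensity + 16) scale in Mac1- cells, 11.71 in Mac1+ cells and 7.84 in neutrophils, and Itgam (Mac1) averaged 6.45, 9.69 and 11.55. Genes of late neutrophils rose with Mac1, with 10 of 11 called higher in Mac1+ than in Mac1- cells (6.31% of all genes). These 11 genes include Itgam and Itgb2, the chains of the Mac1 antigen that the sort used. The summed intensity of the 11 was 98153.4 to 112261 against 19506.9 to 23404.2. Monocyte and macrophage genes fell, with 11 of 12 called lower (5.51% of all genes) and a summed intensity of 8900.4 to 10205.9 against 62610.5 to 67662.7. All 12 exceeded an intensity of 100 on every Mac1- array, and Cx3cr1 stayed under 100 on every Mac1+ array. Each member difference between the myeloblast populations moved beside these lists, and the part of other cells in it was not tested. In sorted bulk samples fewer cells that use a gene and less RNA per cell cannot be told apart.

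Id2 showed the largest difference of the 8 genes between the myeloblast populations. Its brightest probe set, 1435176_a_at, read 337, 321 and 350.3 on the Mac1- arrays, 6017, 5571 and 5509 on the Mac1+ arrays, and 2787, 4201 and 3490.4 on the neutrophil arrays. The 3 groups did not overlap, and the order was Mac1- below neutrophil below Mac1+. On the log2 scale Id2 was 12.48 ± 0.07 (SD, n = 3) in Mac1+ cells and 8.46 ± 0.06 in Mac1- cells, which is a difference of 4.02 ± 0.17 (SE) or 16.2-fold (limma, adjusted p = 2.4e-06). Folds come from this offset scale and understate the changes of dim genes. In neutrophils Id2 stayed 9.84-fold above Mac1- cells (difference 3.30 ± 0.17, limma adjusted p = 3.23e-07) and lay 1.65-fold below Mac1+ cells (difference -0.72 ± 0.17, limma adjusted p = 0.0062).

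The other Id2 probe sets gave the same rise with Mac1. Probe set 1422537_a_at rose by 4.22 ± 0.30 and the dim 1453596_at by 1.55 ± 0.31, from 9.36 to 20.8 on the Mac1- arrays to 57.3 to 99.2 on the Mac1+ arrays, so that 3 of 3 were called higher when every probe set was tested on its own (6.79% of all 45037 probe sets were called in either direction). They disagreed between neutrophils and Mac1+ cells. There 1435176_a_at fell, 1422537_a_at differed by -0.64 (limma, adjusted p = 0.12) and 1453596_at by 0.81 in the other direction (limma, adjusted p = 0.061), against 40.8% of all probe sets called. With the mean of the 3 probe sets the difference was -0.18 (limma, adjusted p = 0.353), so the lower Id2 level of neutrophils rests on the choice of probe set.

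The 250 bases before the Id2 start site are shown because Id2 had the largest myeloblast difference of the 8 genes, and because they hold an E-box match, the motif that E proteins recognise. The sequence is from RefSeq, build GRCm38.p6, chr12:25096093-25096342, minus strand, with the E-box match in capitals.
Id2: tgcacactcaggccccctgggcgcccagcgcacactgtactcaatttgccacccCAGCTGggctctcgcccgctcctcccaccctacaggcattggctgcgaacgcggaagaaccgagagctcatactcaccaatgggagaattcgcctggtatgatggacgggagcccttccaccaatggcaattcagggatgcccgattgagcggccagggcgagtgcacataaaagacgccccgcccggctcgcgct
The E-box match CAGCTG begins at position -196 from the start site. CCAAT, in either orientation, begins at -159, -120 and -76, and GGCGCC, a GC-rich element bound by Smad proteins, begins at -231. Over 32851 windows of the same length, both strands searched, CANNTG was found in 66.2%, CAGCTG in 13%, CCAAT in 33.8% and GGCGCC in 9.59%. A match describes letters in this window and not a bound site.

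Id1, which like Id2 is an inhibitor of E proteins and a known target of BMP signalling, also rose between the myeloblast populations. Its intensity was 367, 227 and 315 on the Mac1- arrays, 919, 1151 and 1040 on the Mac1+ arrays, and 864, 1052 and 1145 on the neutrophil arrays. The Mac1- arrays lay below all others, while the Mac1+ and neutrophil ranges overlapped. Id1 rose from 8.29 ± 0.33 to 10.03 ± 0.16 (SD, n = 3), a difference of 1.74 ± 0.20 or 3.34-fold (limma, adjusted p = 0.000561). From Mac1+ cells to neutrophils the difference was -0.03 ± 0.20 (limma, adjusted p = 0.928), with a 95% interval of -0.49 to 0.43.

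Id3, the third inhibitor, was at or near background. It read 3.08 to 3.60 on the Mac1- arrays and 4.13, 9.87 and 4.55 on the Mac1+ arrays. In neutrophils it read 3.51, 31.2 and 28.9, so neutrophil array 1 lay among the myeloblasts and apart from the other neutrophil arrays. All 9 values were below their array's median. Id3 was called higher in neutrophils than in Mac1- cells (difference 0.84 ± 0.31, limma adjusted p = 0.0482), but the groups overlapped. That call was lost without any 1 of the other 8 arrays (limma, adjusted p from 0.0634 to 0.15), and without neutrophil array 1 the difference was 1.25 (limma, adjusted p = 6.1e-05). With all 9 arrays it was lost with quantile normalization and arrays centred on their medians (limma, adjusted p = 0.0718 and 0.192). Offsets of 1 and 64 and testing every probe set on its own also lost it (limma, adjusted p = 0.0546, 0.0726 and 0.0562). It was kept with the replicate block (limma, adjusted p = 0.0429). The difference from Mac1+ cells was 0.65 ± 0.31 (limma, adjusted p = 0.119), and 1.06 without neutrophil array 1 (limma, adjusted p = 0.000203).

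**Figure D1:**
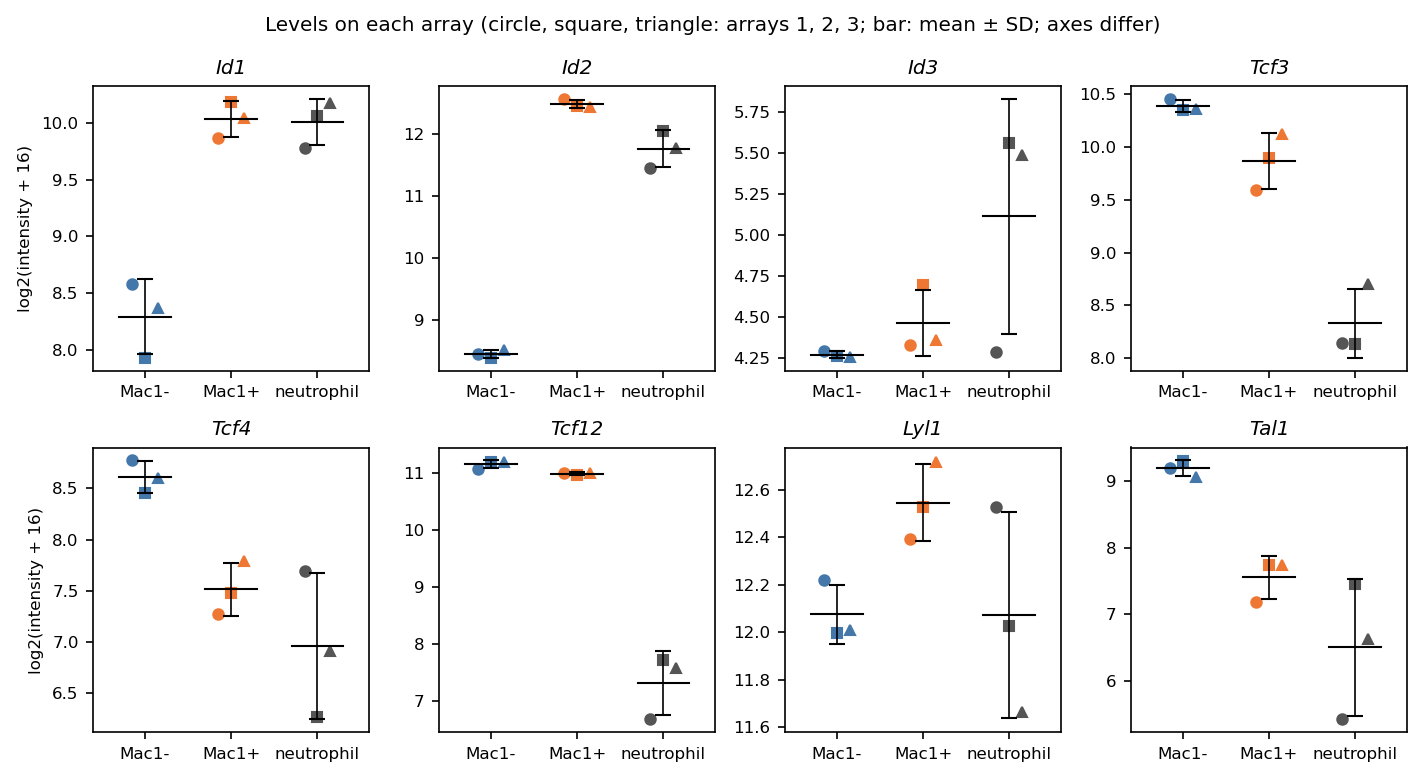
Level of each of the 8 genes on every array, as log2(intensity + 16), by population (3 arrays each; the line is the group mean). Id1 and Id2 sit lowest in Mac1- cells, Tcf3 and Tcf12 sit lowest in neutrophils, Id3 stays near the floor, and neutrophil array 1 is the lowest neutrophil array for Id1, Id2, Id3, Tcf12 and Tal1.

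The 3 E-protein genes were each lower in neutrophils than in Mac1- cells, opposite to Id1 and Id2. Tcf3 encodes E12 and E47, the E proteins needed for the B lineage. It read 1387, 1291 and 1300 on the Mac1- arrays, 754, 939 and 1096 on the Mac1+ arrays, and 267, 266 and 402 on the neutrophil arrays. The groups did not overlap and stepped down from Mac1- cells to neutrophils. The first step, from 10.39 ± 0.06 to 9.87 ± 0.27 (SD, n = 3), was not called (difference -0.52 ± 0.20, limma adjusted p = 0.164). In neutrophils Tcf3 fell to 8.33 ± 0.33, which is 2.91-fold below Mac1+ cells (difference -1.54 ± 0.20, limma adjusted p = 0.000193) and 4.17-fold below Mac1- cells (limma, adjusted p = 2.27e-05). The 3 Tcf3 probe sets gave -1.54, -1.70 and -2.12 between neutrophils and Mac1+ cells, all called lower against 40.8% of all probe sets called in either direction. Between the myeloblast populations none was called (limma; 1 of 3 had an unadjusted p under 0.05), against 6.79% of all probe sets.

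Tcf12 encodes HEB, an E protein that pairs with E47 in developing T cells. Its brightest probe set, 1427670_a_at, read 2132, 2308 and 2317 on the Mac1- arrays, 2034, 1969 and 2024 on the Mac1+ arrays, and 85.9, 193 and 174 on the neutrophil arrays. The neutrophil arrays lay far below all 6 myeloblast arrays, and the Mac1+ arrays lay just below the Mac1- arrays. Tcf12 was 7.32 ± 0.56 in neutrophils against 10.98 ± 0.03 in Mac1+ cells (SD, n = 3), which is 12.7-fold lower (difference -3.67 ± 0.25, limma adjusted p = 2.51e-06), and 14.2-fold below Mac1- cells (difference -3.83 ± 0.25, limma adjusted p = 1.46e-06). Between the myeloblast populations it differed by -0.16 ± 0.25 (limma, adjusted p = 0.848), with a 95% interval of -0.73 to 0.40. That SE and interval include the neutrophil spread (SD 0.56), which exceeded the spread in Mac1+ (0.03) and Mac1- cells (0.07).

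The 5 Tcf12 probe sets did not share the neutrophil drop. When each was tested on its own, 3 were called lower in neutrophils than in Mac1+ cells (40.8% of all probe sets were called in either direction), with differences of -3.67, -3.15 and -1.13, and the dim 1439209_at and 1439619_at differed by 0.30 and 0.40 and were not called. With the mean of the 5 probe sets the Tcf12 differences of neutrophils were smaller, at -1.45 from Mac1+ cells (limma, adjusted p = 0.000123) and -1.27 from Mac1- cells (limma, adjusted p = 0.000255). For 1439209_at neutrophil array 1 read 349 against 53.2 and 34.7 on the other neutrophil arrays. Probe set 1421908_a_at was uneven within groups, with 837, 855 and 171 on the Mac1+ arrays and 371, 88.8 and 300.5 on the Mac1- arrays.

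Granule genes of promyelocytes were, like Tcf3 and Tcf12, lower in neutrophils than in Mac1+ cells. Of 5 such genes 4 were called lower, against 28.4% of all genes. Their summed intensity was 3377.7 to 15394.6 in neutrophils against 61860.4 to 74169.1 in Mac1+ cells. Neutrophil array 1, which stood apart, held the highest granule sum and the lowest Tcf12 reading (85.9). Neutrophil array 3 held the lowest granule sum and the highest Tcf3 reading (402). The order of 3 arrays cannot show how these levels relate. All 5 granule genes exceeded an intensity of 100 on every array, and the part of less mature cells in the neutrophil values was not tested. Without neutrophil array 1 the differences from Mac1+ cells were -1.45 for Tcf3 and -3.35 for Tcf12, both still called (limma, adjusted p = 0.000399 and 9.95e-08).

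Tcf4 encodes E2-2, the E protein that defines plasmacytoid dendritic cells. Its probe set with the highest mean log2 level, 1416724_x_at, carries the suffix given to probe sets that may cross-hybridize. It read 421, 336 and 372 on the Mac1- arrays, 139, 162 and 205 on the Mac1+ arrays, and 191, 61.2 and 104.5 on the neutrophil arrays. The myeloblast groups did not overlap, while neutrophil array 1 lay inside the Mac1+ range. The neutrophil level was 3.14-fold below that of Mac1- cells (difference -1.65 ± 0.32, limma adjusted p = 0.00207).

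The step in Tcf4 between the myeloblast populations just missed the threshold for that probe set, at -1.10 ± 0.32 (limma, adjusted p = 0.0638). It was called with the mean of the 6 probe sets (difference -1.09, limma adjusted p = 0.00384), without neutrophil array 1 (limma, adjusted p = 0.0056) and without neutrophil array 2 (limma, adjusted p = 0.0228). When every probe set was tested on its own, 3 of 6 were called lower, with differences of -1.15, -1.57 and -1.18. In that comparison 6.79% of all probe sets were called in either direction. Of the others, 1416723_at differed by -1.58 (limma, adjusted p = 0.0862) and 1416725_at by 0.02. In neutrophils against Mac1+ cells 4 of 6 were called lower and between neutrophils and Mac1- cells 6 of 6, against 40.8% and 45.1% of all probe sets called. For 1416724_x_at the difference of neutrophils from Mac1+ cells was -0.55 ± 0.32 (limma, adjusted p = 0.193), and -0.92 without neutrophil array 1 (limma, adjusted p = 0.0084).

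Genes of plasmacytoid dendritic cells were examined beside Tcf4. Their summed intensity was 2174.5 to 2259.4 in Mac1- cells and 1268.8 to 1476.1 in Mac1+ cells, with 1 of 10 called lower (5.51% of all genes). That gene was Bst2, which fell by 1.63 ± 0.38 (limma, adjusted p = 0.0223), in the same direction as Tcf4. The median difference of the 10 genes was 0.01. In neutrophils the sum was higher, at 4692.3 to 7331.4. There Irf7 read 5901, 4246 and 3697, against 150 to 176 on the myeloblast arrays. The markers Siglech, Ccr9, Ly6d, Spib, Pacsin1 and Cd209d were under 100 on every myeloblast array, while Klk1, Bst2, Irf7 and Cox6a2 exceeded 100 on every Mac1- array. The part of such cells in the Tcf4 values was not tested.

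**Figure D2:**
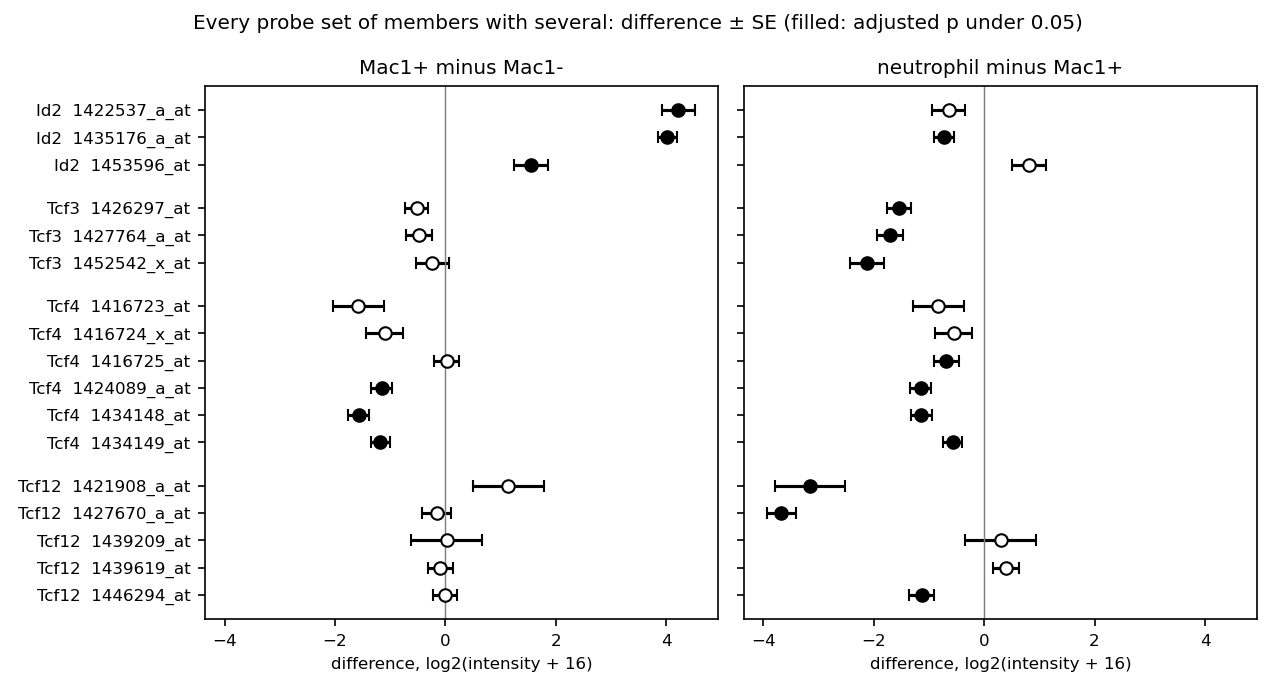
Difference ± SE for every probe set of Id2, Tcf3, Tcf4 and Tcf12 on the log2(intensity + 16) scale, 3 arrays per group, filled where the adjusted p was under 0.05 with each probe set tested on its own. The Tcf3 probe sets fall together in neutrophils, while those of Id2 and Tcf12 point both ways there.

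Tal1, the partner of E proteins in the complex that also holds Lmo2 and Ldb1, was brightest in Mac1- cells. It read 570, 616 and 519 on the Mac1- arrays, 130, 199 and 197 on the Mac1+ arrays, and 27.1, 160.5 and 83.4 on the neutrophil arrays. The myeloblast groups did not overlap, and neutrophil array 2 lay inside the Mac1+ range. Tal1 was 9.19 ± 0.12 in Mac1- cells and 7.56 ± 0.32 in Mac1+ cells (SD, n = 3), which is 3.09-fold lower (difference -1.63 ± 0.44, limma adjusted p = 0.0434). That call was narrow: it was lost without any 1 of the 6 myeloblast arrays (differences of -1.72 to -1.44, limma adjusted p from 0.0993 to 0.152) and without neutrophil array 3 (limma, adjusted p = 0.0591). Without neutrophil array 1 its adjusted p was 0.0017 in limma. The call also depended on processing. It was lost with quantile normalization, arrays centred on their medians and an offset of 1 (limma, adjusted p = 0.115, 0.0899 and 0.117). Testing every probe set on its own also lost it (limma, adjusted p = 0.063). It was kept with the replicate block and an offset of 64 (limma, adjusted p = 0.0319 and 0.0101).

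In neutrophils Tal1 was 6.51 ± 1.02 (SD, n = 3), which is 6.40-fold below Mac1- cells (difference -2.68 ± 0.44, limma adjusted p = 0.000646). Against Mac1+ cells the difference was -1.05 ± 0.44 (limma, adjusted p = 0.0773). It was -0.51 without neutrophil array 1 (limma, adjusted p = 0.146) and -1.53 without neutrophil array 2 (limma, adjusted p = 0.00811). Tal1 is also a gene of erythroid and megakaryocytic cells. Of 9 erythroid genes, Klf1, Alas2, Hba-a1, Rhag and Slc4a1 were under 100 on all 9 arrays, and Car2, Car1, Epor and Ermap exceeded 100 on some. The summed erythroid intensity was 505.3 to 591 in Mac1- cells, 522.9 to 656.9 in Mac1+ cells and 280.5 to 607.6 in neutrophils. The summed megakaryocyte intensity was 326 to 400.2, 372.4 to 461.9 and 653.3 to 796.8. The part of such cells in the Tal1 values was not tested.

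Lyl1, the close relative of Tal1, was bright in every population. It read 4751, 4071 and 4111 on the Mac1- arrays, 5360, 5894 and 6723 on the Mac1+ arrays, and 5895, 4159 and 3228 on the neutrophil arrays. The Mac1+ arrays lay above the Mac1- arrays, and the neutrophil range overlapped both. The differences were 0.47 ± 0.22 between Mac1+ and Mac1- cells (limma, adjusted p = 0.268) and -0.47 ± 0.22 between neutrophils and Mac1+ cells (limma, adjusted p = 0.11). Neutrophils and Mac1- cells differed by 0.00 ± 0.22 (limma, adjusted p = 0.995), with a 95% interval of -0.50 to 0.50. Without neutrophil array 1 Lyl1 was called higher in Mac1+ than in Mac1- cells (0.47, limma adjusted p = 0.0481) and lower in neutrophils than in Mac1+ cells (-0.70, limma adjusted p = 0.00572).

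Short stretches around the E-box matches of 3 other members are shown for comparison with the Id2 promoter, from RefSeq, GRCm38.p6, with the match in capitals. The Tcf3 stretch is chr10:80433672-80433701, the Tcf12 stretch, from 1 of its 3 start sites, is chr9:72112042-72112069, both on the minus strand, and the Lyl1 stretch is chr8:84701210-84701239 on the plus strand.
Tcf3: agtgggcgtggtCACTTGggggcgtggctt
Tcf12: agatgctgccCAGCTGcgtccccgtcgc
Lyl1: acaggttcgggaCACCTGcacctcggtgtc
The Tcf12 stretch and Id2 shared the letters CAGCTG and Lyl1 had CACCTG, which is found in 17.2% of windows. The Tcf12 start sites differed: start site 2 had CAAGTG and start site 3 had no CANNTG. Of the 6 genes with a RefSeq promoter entry used here, Id3 (1 start site) and Tal1 (2 start sites) had no CANNTG in the 250 bases. Id1 and Tcf4 were not among the 6. This describes those letters only.

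Between Mac1+ and Mac1- cells 3 of the 8 genes were called, against 11.8% of all genes tested, with Id1 and Id2 higher (6.31% of all genes were called higher) and Tal1 lower (5.51%). The groups did not overlap for 8 of 8 genes, against 39.9% of all genes, with Id1, Id2, Id3 and Lyl1 higher on every array (19.8% of all genes) and Tcf3, Tcf4, Tcf12 and Tal1 lower on every array (20.1%). Id3 lay near background on these arrays, so its order there carries little weight. Between neutrophils and Mac1+ cells 3 of 8 were called, all lower (Id2, Tcf3 and Tcf12), against 48.1% of all genes and 28.4% called lower. The groups did not overlap for those 3 genes, against 54.6% of all genes, and 30.9% were lower on every array. Between neutrophils and Mac1- cells 7 of 8 were called, against 52.6% of all genes, with 3 higher (22.6% of all genes) and 4 lower (30%). The higher ones were Id1, Id2 and Id3, and the Id3 call, near background, was lost under several alternatives. The groups did not overlap for 6 of 8, against 59.1%, with Id1 and Id2 higher on every array (26.5%) and Tcf3, Tcf4, Tcf12 and Tal1 lower on every array (32.6%). The members' counts are to be read against these shares of all genes, and the 3 comparisons share arrays. The median difference of the 8 genes was 0.01, -0.64 and -0.83 in that order, against -0.01, 0.05 and 0.05 over all genes. Those all-gene values include many dim genes. Without dim genes 10916 genes and 7 members remained, and the all-gene medians were 0, -0.41 and -0.41. Of the 10916 genes, 7785 were called between neutrophils and Mac1+ cells (5062 lower), against 3 of the 7 members. Between neutrophils and Mac1- cells 8266 were called (5117 lower), against 6 of the 7.

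**Figure D3:**
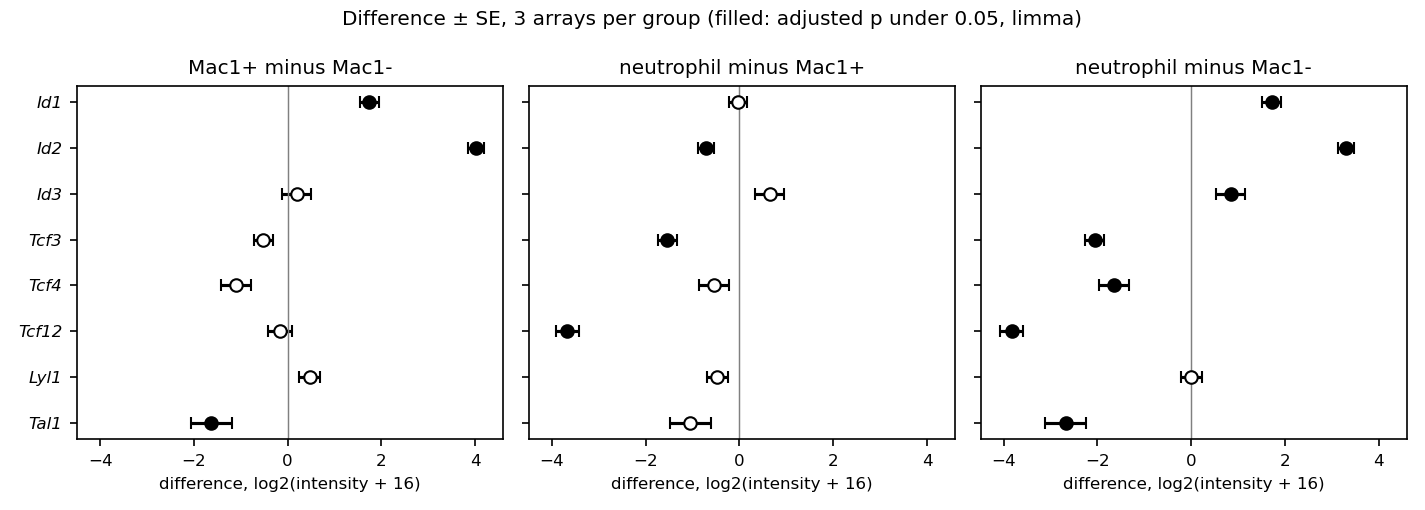
Difference ± SE of the 8 genes in each of the 3 comparisons on the log2(intensity + 16) scale, 3 arrays per group, filled where limma's adjusted p was under 0.05. Id1 and Id2 rise at the Mac1 step, Tcf12 (-3.67) and Tcf3 (-1.54) fall in neutrophils, and Lyl1 stays within 0.47 of 0 throughout.

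The other genes of the network were described in 4 lists, whose counts stand beside 11.8% of all genes called between Mac1+ and Mac1- cells (6.31% higher, 5.51% lower) and 48.1% between neutrophils and Mac1+ cells (28.4% lower). The median differences of all genes were -0.01 and 0.05. Partners and related factors of the Id and E proteins were a list of 32 genes, of which 31 were measured. Between Mac1+ and Mac1- cells 2 were called higher, 3 lower and 26 were not called (median -0.02). Bhlhe40, a basic helix-loop-helix repressor, read 64.8, 51.2 and 56.9 on the Mac1- arrays and 535, 613 and 551 on the Mac1+ arrays, a rise of 2.99 ± 0.55 (limma, adjusted p = 0.00742). On the neutrophil arrays it read 54.3, 355 and 342, so neutrophil array 1 was the low one. Ssbp2, which stabilizes the Ldb1 complex, fell by 1.18 ± 0.17 (limma, adjusted p = 0.00167). Lmo4 rose by 0.83 (limma, adjusted p = 0.0262) and Bhlha15, at 346, 417 and 493 on the Mac1- arrays, was lower at 266, 181 and 163 on the Mac1+ arrays (limma, adjusted p = 0.0156). Of the last pair, the Lmo4 call was lost without any 1 of 5 myeloblast arrays (Mac1- arrays 1, 2 and 3 and Mac1+ arrays 1 and 2; differences 0.71 to 0.93, limma adjusted p from 0.052 to 0.11), and the Bhlha15 call without any 1 of 4 (Mac1- arrays 2 and 3 and Mac1+ arrays 2 and 3; limma adjusted p from 0.0637 to 0.0777).

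In neutrophils against Mac1+ cells 9 of the 31 partners were called higher, 9 lower and 13 were not called (median -0.03). Cbfa2t3, the ETO2 corepressor that joins the Tal1 complex, read 868, 1181 and 1165 in Mac1+ cells and 224, 123 and 67.9 in neutrophils, a fall of 2.94 ± 0.33 (limma, adjusted p = 7e-05). Ssbp3 fell by 1.95 ± 0.17 (limma, adjusted p = 1.06e-05), and Ascl2, a basic helix-loop-helix partner of E proteins, rose by 2.12 ± 0.14 (limma, adjusted p = 1.71e-06). Tal2, a relative of Tal1, fell by 2.29 ± 0.41 (limma, adjusted p = 0.00137). That value rests on 1 of its 2 probe sets, which read 9693, 10078 and 4231 on the Mac1+ arrays, and the other stayed under 200 on all arrays. With the mean of both the difference was -0.37 (limma, adjusted p = 0.29). Lmo2, the bridge of the Tal1 complex, read 5739, 5534 and 6497 in Mac1+ cells and 3047, 3447 and 2801 in neutrophils, and fell by 0.93 (limma, adjusted p = 0.000492), and it was named for its role and not for its size.

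Genes that induce or repress Id genes were described from 27 genes, all measured. Between Mac1+ and Mac1- cells, where Id1 and Id2 rose, 1 was called higher, 4 lower and 22 were not called (median -0.08). The lower ones included receptors of the BMP and TGF-beta pathway, which acts on Id genes through Smad proteins. Eng read 401, 375 and 374 in Mac1- cells and 78.4, 86.2 and 82.1 in Mac1+ cells, a fall of 2.02 ± 0.19 (limma, adjusted p = 0.000154). Bmpr2 fell from 1083, 1039 and 1171 to 268, 297 and 278, by 1.91 ± 0.18 (limma, adjusted p = 0.000172). Smad6, an inhibitory Smad, fell by 1.19 ± 0.15 (limma, adjusted p = 0.000845). Gfi1, a repressor of Id genes in the neutrophil lineage, rose by 1.15 ± 0.22 (limma, adjusted p = 0.00844), in the population in which Id1 and Id2 were higher. It read 3615, 4241 and 3652 in Mac1- cells and 8344, 8398 and 8772 in Mac1+ cells. The part of Gfi1, the receptors and Smad6 in the Id levels was not tested.

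Between neutrophils and Mac1+ cells 10 of the 27 were called higher, 7 lower and 10 were not called (median 0.37 against 0.05 for all genes; 48.1% of all genes were called). Gfi1 read 599.9, 1131 and 816 in neutrophils and fell by 3.35 ± 0.22 (limma, adjusted p = 1.84e-06), while Id1 differed by -0.03 and Id2 by -0.72. The BMP-family receptor genes Acvrl1 and Bmpr1a rose by 4.05 ± 0.22 (limma, adjusted p = 6.33e-07) and 3.62 ± 0.47 (limma, adjusted p = 0.000168). Bmpr1a read 317 on neutrophil array 1 and 1228 and 1217 on the others. Among the Smad genes of the list, Smad1 and Smad5 ran the other way. Smad1 read 612, 652 and 655 in Mac1+ cells and 18.01, 111 and 201 in neutrophils. Smad5 read 959, 1054 and 1250 in Mac1+ cells and 29.61, 160 and 234 in neutrophils. Smad2, Smad3 and Smad4 were higher on every neutrophil array than on any Mac1+ array, and the ranges of Smad6 and Smad7 overlapped. Egr1, an immediate early gene, rose by 4.71 ± 0.64 (limma, adjusted p = 0.000235). It read 6083 on neutrophil array 1 and 1295 and 759.9 on the others, and without that array the difference was 3.84. The part of Gfi1, the receptors, the Smad genes and Egr1 in the Id levels was not tested.

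Genes known as E-protein targets in lymphoid cells were described from 27 genes, of which 26 were measured. Between Mac1+ and Mac1- cells 1 was called higher, 2 lower and 23 were not called (median 0.00). The higher one was Gfi1, which this list shares with the preceding one. Cdkn1a, the cell cycle inhibitor p21, fell by 1.85 ± 0.15 (limma, adjusted p = 7.69e-05) and Foxo1 by 1.13 ± 0.20 (limma, adjusted p = 0.00541). In neutrophils against Mac1+ cells, where Tcf3 and Tcf12 fell, 1 was called higher, 6 lower and 19 were not called (median 0.19 against 0.05 for all genes; 48.1% of all genes were called). Cdk6, a cyclin-dependent kinase, fell by 4.05 ± 0.20 (limma, adjusted p = 3.58e-07) and Cd79b, a B cell receptor component, by 3.04 ± 0.18 (limma, adjusted p = 9.6e-07). Igll1, a surrogate light chain gene, fell by 2.92 ± 0.34 (limma, adjusted p = 9.09e-05), but differed by 0.29 when probe sets that may cross-hybridize were left out (limma, adjusted p = 0.513).

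Among the other B-lineage genes of that list, Cd79a, Pax5, Vpreb1 and Vpreb3 stayed under 100 on every myeloblast array. Ebf1 was bright by 1 of 5 probe sets only, at 11772, 8838 and 1898 on the Mac1+ arrays, and the other 4 stayed under 200 on all arrays. Its fall from Mac1- cells to neutrophils, by 2.98 ± 0.64 (limma, adjusted p = 0.00355), was -0.22 with the mean of its probe sets (limma, adjusted p = 0.573).

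Genes known as targets of the Tal1, Lyl1 and Lmo2 complex were described from 20 genes, of which 18 were measured. Between Mac1+ and Mac1- cells 1 was called, in the lower direction, and 17 were not (median 0.04). That gene was Cd34, a stem and progenitor cell surface protein, which read 3352, 3317 and 3215 in Mac1- cells and 54.2, 73.6 and 69.9 in Mac1+ cells, a fall of 5.35 ± 0.17 (limma, adjusted p = 8.39e-07). Between neutrophils and Mac1+ cells 4 were called higher, 4 lower and 10 were not called (median 0.41 against 0.05 for all genes; 48.1% of all genes were called). The lower ones were Kit, at -3.87 ± 0.37 (limma, adjusted p = 2.47e-05), which the sort used, Cbfa2t3, Runx3, at -2.35 ± 0.31 (limma, adjusted p = 0.000194), and Cd34, at -1.35 ± 0.17 (limma, adjusted p = 0.000139).

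**Figure D4:**
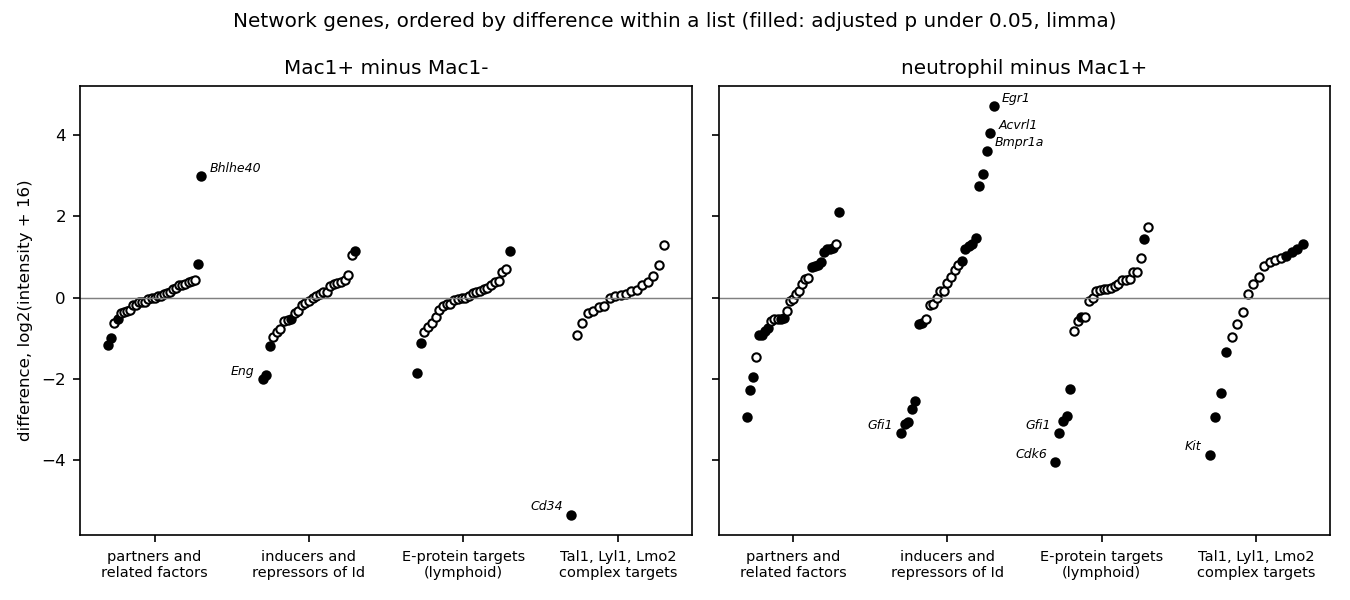
Difference of each measured gene in the 4 lists on the log2(intensity + 16) scale, ordered within each list and filled where limma's adjusted p was under 0.05. In the Mac1 step few points leave 0, led by Bhlhe40 (2.99) and Cd34 (-5.35), while in neutrophils the Id inducers and repressors spread from Gfi1 (-3.35) to Egr1 (4.71).

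The genes whose levels ran most like each member over the 9 arrays, among 9095 other genes with a mean above the median gene, were named by their Pearson correlation of log2 values. These are descriptions, and with 3 populations any gene that differs in the same steps correlates strongly. Id1 ran most like Smim5 (0.990), Ltf (0.982), a secondary granule gene, and Neu1 (0.981). Id2 ran most like Rasl11b (0.995), Cpne3 (0.993) and Tmem63a (0.993). Tcf3 ran most like Focad (0.998), Dennd1a (0.997) and Mccc2 (0.995). Tcf12 ran most like Spcs2, Pdia3 and Dad1 (0.999 each), which act in protein entry, folding and glycosylation in the endoplasmic reticulum. Tcf4 ran most like Dnlz (0.984), Pomgnt1 (0.982) and Nagk (0.972). Tal1 ran most like Lpl (0.988), Plcb1 (0.987) and St6galnac4 (0.984). Lyl1, whose differences all lay within 0.47 of 0, had the lowest such values, with Ywhab (0.961), Tpcn1 (0.958) and Svip (0.956). For Id3, near background, the correlations were 0.981 with Zfp119b, 0.977 with Entr1 and 0.976 with Plod1, among 9096 candidates.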

How the data were processed

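The authors deposited 1 table of linear intensity values, 45101 probe sets on 9 arrays, 3 per population; per the labels' protocols the RNA was amplified over 2 cycles and labelled with biotin. The summary, background correction and scaling behind them are not given in any source used here. Amplification favours 3′ ends. Gene names came from the platform's annotation (932 probe sets name several genes, 9160 none, 64 are controls), and 21 of 21 member probe sets matched RefSeq gene IDs and symbols. The log2 of the deposited intensity plus 16 entered a linear model of the 3 populations (R 4.3.3, limma 3.58.1) over all 9 arrays, with the highest-mean probe set per gene. Genes with a Benjamini-Hochberg adjusted p under 0.05 over 18193 genes were called. The number of arrays limits the precision. The code was tested on simulated data.

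The members and lists were chosen with earlier results of these data known. Named from a list were up to 4 called genes with the largest difference, or, with no call, the 2 of lowest p. The exceptions, Lmo2, Smad1, Smad2, Smad3, Smad4 and Smad5, were chosen after their values were seen. The 3 genes most correlated with each member, and the sort antigens, were also named. The main tests did not pair arrays by number. Deviations from the group means correlated at -0.307 to 0.132 between same-numbered arrays of different groups, over 0.1 in 1 of 9 pairs. Between differently numbered arrays they correlated at -0.168 to 0.287. With 3 arrays per group these values cannot show whether same-numbered arrays shared animals or sorts. Alternatives covered normalization, the offset, dim genes, probe set choice, array weights, a 2-fold test, other sample sets and leaving out each array.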

Additional observations from a re-analysis of the deposited data

How the results depend on the processing

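Of 525 member differences recomputed under alternatives, 461 kept direction and side of the threshold, 24 gained a call, 32 lost one and 8 changed sign; of 879 for other named genes, 852 kept both, 25 lost a call and 2 changed sign. Members called were 3, 3 and 7 for Mac1+ against Mac1-, neutrophil against Mac1+ and neutrophil against Mac1-. The first count was 6 with only those populations and 6 with array weights, and 1 for changes of at least 2-fold. The second was 5 with arrays centred on their medians, 6 with array weights and 1 for at least 2-fold. Leaving out 1 array gave 2 to 5, 3 to 6 and 6 to 7, with 5 and 6 without neutrophil array 1. With array number as a replicate block the counts were 3, 4 and 7; the block added Tal1 in neutrophils against Mac1+ cells (-1.05, limma adjusted p = 0.045).

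Signs changed for near-0 differences: Id1 in neutrophils against Mac1+ cells (0.29 with quantile normalization, -0.11 to 0.09 when 1 array was left out, 0.05 without Mac1+ array 2), Lyl1 in neutrophils against Mac1- cells (0.09 with quantile normalization, -0.23 to 0.20 when 1 array was left out, 0.07 without Mac1- array 1, 0.02 without neutrophil array 2) and Tcf12 in Mac1+ against Mac1- cells (0.18 with the mean of probe sets). Without probe sets that may cross-hybridize, Igll1 differed by 0.29 and 0.19 in neutrophils against Mac1+ and Mac1- cells.

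Over all genes, 2151, 8754 and 9570 were called. The first was 4509 with only those populations, 5760 with array weights, 378 for at least 2-fold, 1318, 1317 and 1423 without Mac1- arrays 2 and 3 and Mac1+ array 2, and 4178 without neutrophil array 1. The others were 18385 and 20300 of 45037 with every probe set tested on its own, and 3685 and 4509 for at least 2-fold. In the neutrophil comparisons the all-gene median was 0.05, and -0.15 and -0.12 after centring on medians. The causes were not tested, apart from the number of features or samples an alternative leaves. Signal over background limits Id3, which stayed below the array median on all 9 arrays.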

Other observations

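Several bright probe sets of genes in the Id and E-protein network were lower on Mac1+ array 3 than on the other Mac1+ arrays. Acvr2b, an activin receptor gene, read 8626 and 4773 on Mac1+ arrays 1 and 2 and 831 on array 3, against 4061 to 6816 on the Mac1- arrays. Ebf1 (11772, 8838 and 1898), Tal2 (9693, 10078 and 4231) and the Tcf12 probe set 1421908_a_at (837, 855 and 171, with 88.8 on Mac1- array 2) ran the same way, and Mac1+ array 3 lay at least 2-fold below both other Mac1+ arrays at 174 probe sets in all. The same 4 probe sets were low on the neutrophil arrays, at 238 to 875, 836 to 2112, 1045 to 2656 and 37.9 to 47.8. Id4, the fourth inhibitor gene, read 6.44 to 44.2 on 8 arrays and 274 on neutrophil array 1, and 2 of its 3 probe sets stayed under 200 on all arrays. These genes were picked out after their values were seen.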
